A study of Mus musculus with 20 samples.

Results

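The comparison described here set 5 Combination tumours, from animals given Plerixafor and an antibody against PD-1, beside 5 anti-PD-1 tumours, from animals given the antibody alone, so that the drug was the labelled difference between them. The genes followed were those with an FPKM (reads per gene corrected for gene length and for sequencing depth) of at least 1 in at least 5 of these 10 libraries, and they numbered 11885 of the 18722 genes in the deposited table. All tumours were labelled as grown from U14, a mouse cervical cancer line, and each library was made from the RNA of whole tumour tissue. A second pair of groups, Plerixafor alone and the solution alone (Solution), had 5 libraries each and showed the same drug without the antibody. The labels call the first group only Combination, and the design text of the series speaks of joining CXCR4 inhibitors to checkpoint blockade. Strain, age, doses and treatment times are not given in the sources used here, and all groups share 1 tumour line. The labels number the libraries without saying that each came from its own animal, so the p-values measure the spread between libraries.

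Plerixafor blocks CXCR4, the receptor through which the chemokine CXCL12 draws and holds leukocytes in tissue. PD-1, encoded by Pdcd1, is an inhibitory receptor of activated T cells; its ligand PD-L1, encoded by Cd274, is carried by tumour cells and myeloid cells. T cells that meet antigen for a long time become exhausted, keep several inhibitory receptors and come under the control of the transcription factor TOX. JAK2 and STAT3 carry cytokine signals from receptors to the nucleus. The series set out to ask how these parts connect, and the comparison with the antibody present in both groups shows what the drug went with on top of it.

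The depth behind the values was 17338691 to 19026511 reads in the Combination libraries and 16565807 to 19833872 in the anti-PD-1 libraries. On the first principal component of all 20 libraries, with 68.4% of the variance, the Combination libraries lay between 48.6 and 94.3 and the anti-PD-1 libraries between -78.6 and -43.5. Several libraries stood apart within their group. Skeletal muscle contractile genes took 0.161%, 0.0243%, 0.346%, 0.0155% and 0.238% of all FPKM in Combination libraries 1 to 5, against 25.9%, 7.88%, 3.27%, 0.0618% and 9.28% in anti-PD-1 libraries 1 to 5. Anti-PD-1 library 1, with the most muscle RNA, was also the lowest of its group for T cell, macrophage and fibroblast genes, and anti-PD-1 library 4, with the least, was the highest for genes of dividing cells. Among the Combination libraries, libraries 4 and 5 were the lowest for T cell, macrophage and fibroblast genes. Because FPKM is a share of a library, a gene family that fills more of it lowers all other values in that library.

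The labelled origin was checked against epithelial markers. The keratin genes Krt8 and Krt18, which encode the paired filaments of simple epithelia, lay at 296 to 487 FPKM and 444 to 641 FPKM in Combination tumours, against 2.27 to 37.8 FPKM and 3.84 to 46.6 FPKM in anti-PD-1 tumours. Epcam, an adhesion protein of most epithelia, was low in both, at 0.0777 to 5.18 FPKM in Combination tumours and 0.351 to 15.4 FPKM in anti-PD-1 tumours. Cdh1, which encodes E-cadherin, lay at 0.446 to 3.197 FPKM in Combination tumours and 0.259 to 6.05 FPKM in anti-PD-1 tumours. Only 7 of the 15 epithelial markers passed the level filter. The other 8, Krt5, Krt7 and Cldn4 among them, reached at most 5.67 FPKM in the Combination libraries and at most 1.04 FPKM in the anti-PD-1 libraries other than library 3, where Krt7 reached 13.7 FPKM. Epcam was chosen for mention after its values were seen, as were Cd8a and Apoe below.

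Adding the drug to the antibody went with a change in most genes measured. Fold changes were taken on the log2(FPKM + 1) scale, which understates the change of low genes, and were tested with limma over the 12687 genes that reached 1 FPKM in at least 5 of all 20 libraries; a change was called at a Benjamini-Hochberg adjusted p under 0.05. Of the genes tested, 5547 (43.7%) were called higher and 3915 (30.9%) lower in Combination tumours. Of the 11885 genes followed, 5454 rose, 3403 fell and 3028 did not pass the test, and 2611 of those that rose and 1983 of those that fell moved by more than 1 on the log2 scale. All 5 Combination values lay above all 5 anti-PD-1 values for 4732 genes and below them for 1746. In the same counts, 277 genes reached 1 FPKM in all Combination and no anti-PD-1 libraries, and 271 the reverse. The median log2 fold change over all genes tested was 0.15, and it depends on the scaling: it was -0.01 with median-of-ratios scaling and -0.09 when libraries were rescaled without muscle genes. Rises made up 61.6% of all calls on the deposited scale, and 53.5% and 49.8% under these 2 scalings. The group medians below are to be read against that shift, and the counts of each list against the 43.7% and 30.9% of all genes tested.

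**Figure D1:**
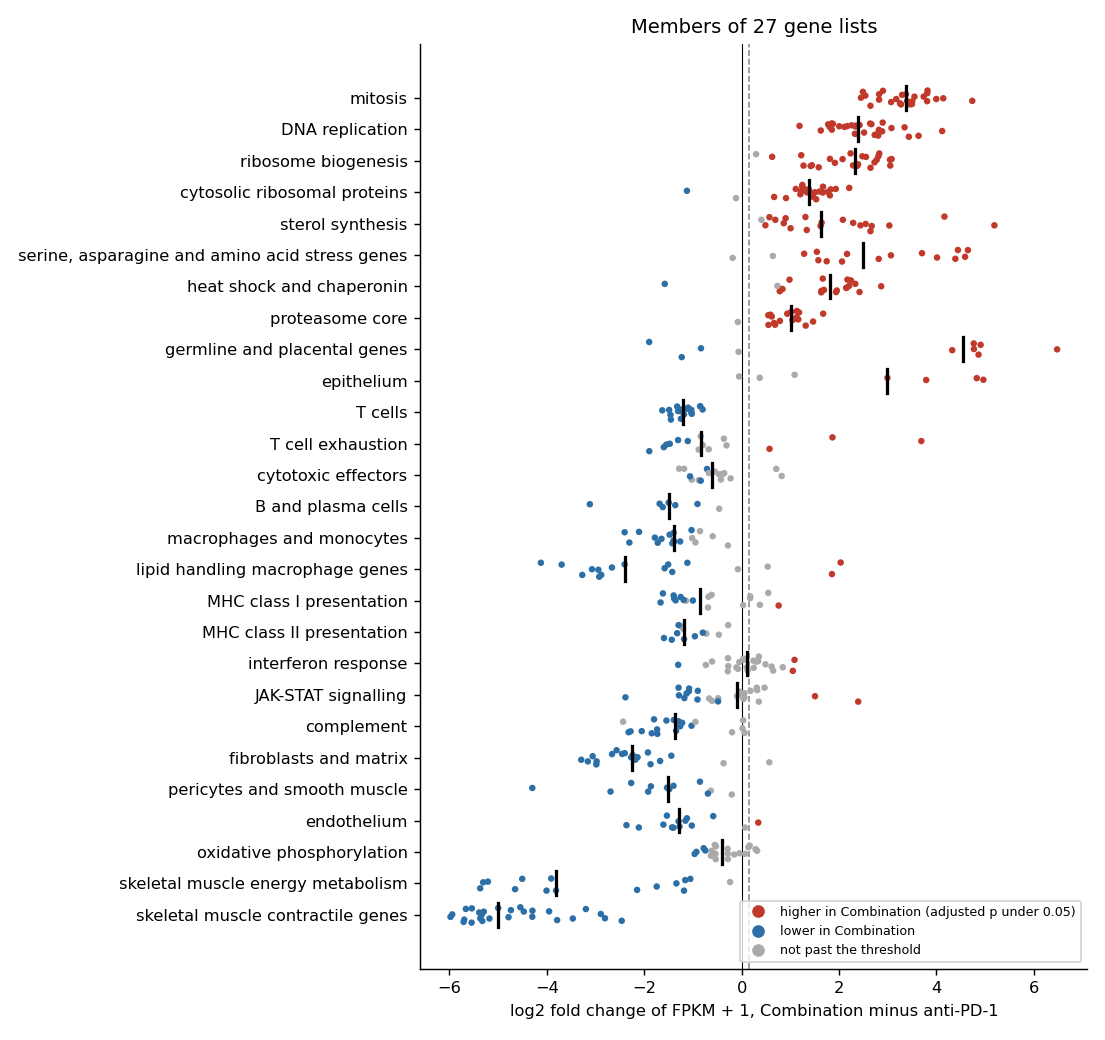
Log2 fold change of FPKM + 1, Combination minus anti-PD-1, for each member of 27 gene lists; red points rose and blue points fell at an adjusted p under 0.05, grey points did not pass, black bars are list medians and the dashed line is the median of all genes tested. Lists of cell division, protein synthesis and sterol synthesis lie to the right, those of leukocytes, stroma and muscle to the left, and the interferon and JAK-STAT lists lie around 0.

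The drug's own target and the checkpoint pair came first among the genes of interest. Cxcr4, the receptor that Plerixafor blocks, had 10.7, 10.5, 8.74, 5.002 and 3.97 FPKM in Combination tumours, against 6.25, 29.8, 39.7, 59.6 and 40.4 FPKM in anti-PD-1 tumours. It fell in Combination tumours, with a log2 fold change of -1.84 ± 0.46 (SE, n = 5 each) and an adjusted p of 0.00137; only anti-PD-1 library 1 lay within the range of the Combination libraries. Cxcl12, its ligand, had 31.9, 29.3, 15.99, 11.8 and 4.24 FPKM in Combination tumours and 25.7, 49.1, 66.2, 81.2 and 39.8 FPKM in anti-PD-1 tumours, and fell, with a log2 fold change of -1.61 ± 0.51 (adjusted p = 0.00794), with overlapping groups. Mif, a cytokine that can also bind CXCR4, went the other way, at 754, 846, 755, 847 and 691 FPKM in Combination tumours and 89.04, 129, 179, 367 and 226 FPKM in anti-PD-1 tumours (log2 fold change 2.13 ± 0.26, adjusted p = 8.59e-07). Dpp4, a surface protease that clips and inactivates CXCL12, fell, at -1.38 ± 0.28 (adjusted p = 0.000196). Of the 6 genes of the CXCR4 axis, 4 fell and 1 rose. In whole tissue, a change in the number of cells of a type and a change in RNA per cell cannot be told apart. This holds for every gene below, the rises of keratin, germline, cell division and metabolic genes as well as the falls of leukocyte and stromal genes.

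Neither gene of the checkpoint pair passed the test. Pdcd1 had 5.25, 5.52, 4.57, 1.73 and 0.608 FPKM in Combination tumours and 1.41, 5.19, 8.59, 14.03 and 7.49 FPKM in anti-PD-1 tumours, a log2 fold change of -0.84 ± 0.43 with a 95% interval of -1.75 to 0.07 (adjusted p = 0.0868). Cd274 had 17.7, 12.4, 12.4, 7.203 and 2.14 FPKM in Combination tumours and 3.42, 14.8, 34.7, 69.4 and 29.5 FPKM in anti-PD-1 tumours, a log2 fold change of -1.19 ± 0.64 with an interval of -2.53 to 0.14 (adjusted p = 0.098). In both genes anti-PD-1 library 1 was the lowest of its group and Combination library 5 the lowest of all. Without anti-PD-1 library 1 both passed, with log2 fold changes of -1.23 for Pdcd1 (adjusted p = 0.00637) and -1.77 for Cd274 (adjusted p = 0.0072), and median-of-ratios scaling and rescaling without muscle genes also brought both past the threshold. Tox was too low to be among the genes followed, with 0.576, 0.4395, 0.333, 0.3004 and 0.0992 FPKM in Combination tumours and 0.435, 1.17, 1.74, 1.195 and 0.971 FPKM in anti-PD-1 tumours. In the test over all genes it was lower in Combination tumours, with a log2 fold change of -0.62 ± 0.19 (adjusted p = 0.006).

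Jak2 and Stat3 lay at nearly the same level in the 2 groups. Jak2 had 9.604, 8.49, 9.57, 8.06 and 6.78 FPKM in Combination tumours and 5.31, 7.79, 11.2, 12.1 and 8.64 FPKM in anti-PD-1 tumours, and its log2 fold change of -0.04 ± 0.18 had an interval of -0.41 to 0.34. Stat3 had 54.3, 50.2, 47.5, 43.7 and 39.8 FPKM in Combination tumours and 23.9, 47.2, 55.6, 62.5 and 46.9 FPKM in anti-PD-1 tumours, with 0.06 ± 0.19 and an interval of -0.34 to 0.46. Both intervals thus leave out a change of 0.5 in either direction, although the sign of Stat3 turned under the 4 other scalings and Jak2 fell by 0.42 without anti-PD-1 libraries 1, 2 and 5 (adjusted p = 0.0441). Of 27 genes of JAK-STAT signalling 2 rose, or 4 without anti-PD-1 library 4, and 10 fell, or 15 without anti-PD-1 libraries 1, 2 and 5. The median log2 fold change was -0.09, and under the alternatives it lay between -0.62, with the muscle level as a covariate, and -0.05. Pim3, a kinase gene induced by STAT factors, stood at 76.7, 83.8, 78.6, 76.4 and 83.9 FPKM in Combination tumours and 15.2, 14.5, 13.4, 13.4 and 15.5 FPKM in anti-PD-1 tumours (2.39 ± 0.11, adjusted p = 8.78e-12), a gap far wider than the spread in either group. Lif, a cytokine that signals through STAT3, had 3.21, 3.45, 3.21, 2.72 and 2.39 FPKM in Combination tumours and 0.121, 0.348, 0.584, 0.617 and 0.387 FPKM in anti-PD-1 tumours (1.51 ± 0.14). Falling members included Stat5b, which carries growth hormone and interleukin 2 signals, at 4.02, 3.09, 3.34, 2.01 and 0.9599 FPKM in Combination tumours and 30.7, 17.2, 16.4, 11.1 and 15.8 FPKM in anti-PD-1 tumours (-2.39 ± 0.29). Il6st, the signalling chain shared by interleukin 6 family receptors, fell, at -1.29 ± 0.21, and Bcl6, a transcriptional repressor, at -0.91 ± 0.13; all 3 kept their groups apart.

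**Figure D2:**
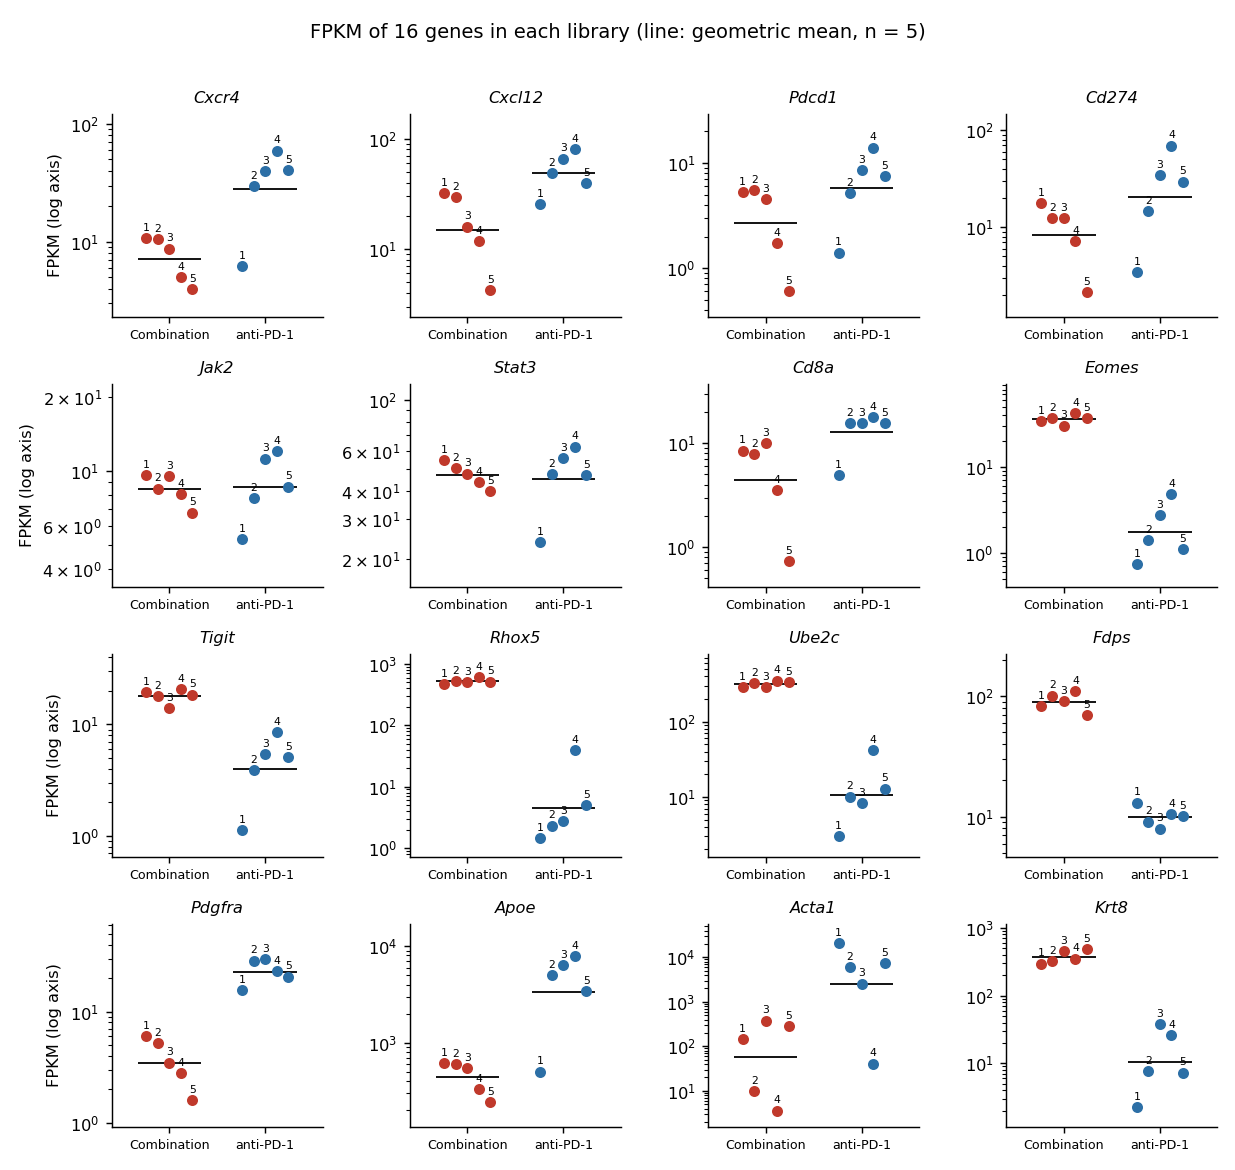
FPKM on a log axis of 16 genes in each of the 5 Combination (red, left) and 5 anti-PD-1 (blue, right) libraries, numbered by library, with the geometric mean as a line. Rhox5, Ube2c, Fdps, Eomes and Tigit are level among Combination libraries and lower in every anti-PD-1 library, while leukocyte genes fall to their lowest in Combination libraries 4 and 5 and in anti-PD-1 library 1.

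The largest rises belonged to genes of germline, placental and epithelial tissue and to metabolic genes. Rhox5, a homeobox gene of testis and placenta, had 476, 531, 510.2, 605 and 514 FPKM in Combination tumours and 1.46, 2.32, 2.73, 38.9 and 4.94 FPKM in anti-PD-1 tumours (log2 fold change 6.48 ± 0.51, adjusted p = 2.32e-09). Lgals7, a galectin of stratified epithelium, followed with 215, 269, 268, 337 and 363 FPKM in Combination tumours and 1.27, 1.405, 3.88, 21.2 and 2.94 FPKM in anti-PD-1 tumours (5.93 ± 0.68). Gchfr, the feedback regulator of tetrahydrobiopterin synthesis, had 103, 113, 110.5, 139 and 117 FPKM in Combination tumours and 0.768, 1.25, 0.901, 9.06 and 1.42 FPKM in anti-PD-1 tumours (5.37 ± 0.36). In all 3 genes anti-PD-1 library 4 lay well above the other anti-PD-1 libraries and below every Combination library. Slc2a3, a high-affinity glucose transporter, rose to 217 to 351 FPKM in Combination tumours, against 2.46 to 20.5 FPKM in anti-PD-1 tumours (5.204 ± 0.31). Sqle, the epoxidase that commits squalene to sterol synthesis, stood at 112 to 148 FPKM in Combination tumours and 1.03 to 6.62 FPKM in anti-PD-1 tumours (5.19 ± 0.27). Krt8 rose by 4.96 ± 0.56 and Krt18 by 4.83 ± 0.51.

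The next of the 12 largest rises were regulators and embryonic genes. Pitx1, a homeobox gene of hindlimb and pituitary, stood at 60.9 to 75.3 FPKM in Combination tumours and 0.2496 to 6.08 FPKM in anti-PD-1 tumours (4.91 ± 0.32). Tex11, a meiosis gene, stood at 37.2 to 51.6 FPKM in Combination tumours and 0.151 to 3.06 FPKM in anti-PD-1 tumours (4.91 ± 0.27). Cldn6, a tight junction protein of embryonic epithelium, stood at 32.2 to 52.7 FPKM in Combination tumours and 0.0396 to 3.21 FPKM in anti-PD-1 tumours (4.79 ± 0.31). Prl2c2, a proliferin of the placenta, rose by 4.86 ± 0.61, and Hmga1b, a chromatin protein gene, by 4.85 ± 0.35; both have near-identical copies in the genome, so how their reads were divided among copies is uncertain. As a description of all 12, the anti-PD-1 libraries 1 to 5 held a median of 0.517%, 1.13%, 1.36%, 7.43% and 2.11% of the Combination mean, and anti-PD-1 library 4 was the highest of its group for 10 of the 12. For Krt8 and Krt18 the highest was anti-PD-1 library 3, which also had 92.1 FPKM of Krt19, a keratin of ducts, where no other anti-PD-1 library passed 2.24 FPKM.

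Every gene of the mitosis and DNA replication lists rose. All 25 genes of the mitosis list rose in Combination tumours, with a median log2 fold change of 3.37, and so did all 30 genes of DNA replication, with a median of 2.39. Each kept its 5 Combination values above its 5 anti-PD-1 values, and all of these calls held under each processing alternative tried. Ttk, a kinase of the spindle checkpoint, had 19.6, 23.6, 21.3, 23.1 and 24.8 FPKM in Combination tumours and 0.191, 1.06, 0.718, 3.29 and 1.11 FPKM in anti-PD-1 tumours (3.497 ± 0.24, adjusted p = 4.66e-10). Aurka, which builds the spindle poles, stood at 31.6 to 43.99 FPKM in Combination tumours and 1.93 to 7.06 FPKM in anti-PD-1 tumours (3.27 ± 0.23). Ndc80, a kinetochore protein, rose by 3.29 ± 0.24 and Cenpf, another, by 2.54 ± 0.18. Of the replication genes, Mcm10, which loads the polymerase at origins, had 21.6, 27.1, 22.5, 26.4 and 27.1 FPKM in Combination tumours and 0.278, 0.979, 0.863, 3.39 and 0.906 FPKM in anti-PD-1 tumours (3.63 ± 0.24). Pole, the catalytic subunit of the leading strand polymerase, stood at 9.36 to 11.8 FPKM in Combination tumours and 1.03 to 2.14 FPKM in anti-PD-1 tumours (2.26 ± 0.12), and Orc1, a subunit of the origin recognition complex, rose by 2.33 ± 0.13.

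Anti-PD-1 library 4 was the highest of its group for all 25 mitosis and all 30 replication genes, and library 1 held the least, with a median of 1.65% of the Combination mean for mitosis genes against 18.4% in library 4. Among cyclins and inhibitors of cyclin-dependent kinases, 15 of 20 rose and 3 fell. Ccna2, the cyclin of S phase and mitotic entry, had 112, 133, 111, 136 and 119.8 FPKM in Combination tumours and 0.983, 5.88, 5.53, 17.8 and 6.998 FPKM in anti-PD-1 tumours (4.201 ± 0.38). Ccne2, a cyclin of S phase entry, rose by 1.75 ± 0.14. Inhibitors rose in the same tumours: Cdkn2a, the INK4 and ARF locus, stood at 73.4 to 90.4 FPKM in Combination tumours and 1.12 to 12.03 FPKM in anti-PD-1 tumours (3.84 ± 0.40), and Cdkn2d rose by 1.37 ± 0.097. The drug contrast without the antibody also gave a rise in every mitosis and replication gene, with medians of 3.14 and 2.43.

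The promoters of the mitosis genes were read for 2 short elements common in promoters of mitotic genes. These were the CHR element TTTGAA, bound by MuvB complexes, and the CCAAT box CCAAT, bound by NF-Y. Both strands were read, and overlapping matches were counted. The list was set by function, so the shares below do not depend on the fold changes and describe the list only. Windows of 250 bases before to 50 bases after the start came from RefSeq (GRCm38.p6), with the window listed first for each gene. Of the 25 mitosis genes 21 had a window; 16 of them (76.2%) held the CHR element and 18 (85.7%) the CCAAT box, against 11.9% and 39.0% of the 9532 genes followed that had a window. The window of Ube2c, the ubiquitin-conjugating enzyme of mitotic exit, is shown because Ube2c had the largest rise on the list and holds both elements: 289.6, 328, 288, 349.7 and 336 FPKM in Combination tumours and 3.05, 10.1, 8.19, 41.5 and 12.9 FPKM in anti-PD-1 tumours (4.74 ± 0.401, adjusted p = 6.26e-09). It lies at chr2:164769679-164769978 on the plus strand, and capitals mark 6 matches to the CCAAT box, of which a pair on opposite strands overlap, and 1 to the CHR element, read on the other strand at position -29 from the start.
Ube2c: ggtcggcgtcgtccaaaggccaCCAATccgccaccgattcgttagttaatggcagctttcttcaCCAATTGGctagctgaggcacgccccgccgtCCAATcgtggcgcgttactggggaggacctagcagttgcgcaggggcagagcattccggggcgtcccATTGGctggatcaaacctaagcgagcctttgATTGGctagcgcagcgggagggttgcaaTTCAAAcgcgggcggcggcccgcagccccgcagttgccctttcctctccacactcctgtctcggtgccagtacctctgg
A match is a description of the letters and was not tested as a binding site.

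Genes that build ribosomes and proteins rose alongside. Of 24 ribosome biogenesis genes 23 rose and none fell, with a median of 2.33. Nop56, a core protein of the particles that modify ribosomal RNA, had 60.5, 65.1, 65.2, 78.6 and 74.03 FPKM in Combination tumours and 4.97, 8.01, 6.43, 11.8 and 6.26 FPKM in anti-PD-1 tumours (3.08 ± 0.16, adjusted p = 3.18e-11), and Wdr43, a factor of small subunit processing, rose by 2.83 ± 0.15. Of 24 cytosolic ribosomal protein genes 22 rose and 1 fell, with a median of 1.39; the list took 6.76% to 7.41% of all FPKM in Combination tumours and 2.03% to 3.72% in anti-PD-1 tumours. Rpsa, of the small subunit, stood at 1814 to 2064 FPKM in Combination tumours and 290.1 to 589.5 FPKM in anti-PD-1 tumours (2.21 ± 0.16). Of 20 heat shock and chaperonin genes 18 rose and 1 fell (median 1.81). Cct5, a subunit of the ring that folds actin and tubulin, rose by 2.15 ± 0.13, and Hsp90ab1, the constitutive HSP90 chaperone, had 2293, 2483, 2252, 2613 and 2714 FPKM in Combination tumours and 531, 566, 506, 629 and 550.2 FPKM in anti-PD-1 tumours (2.15 ± 0.13). Of 19 core proteasome genes 18 rose and none fell, by less (median 1.02), with Psmb1, a subunit of the proteolytic ring, at 1.31 ± 0.098.

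Sterol synthesis genes rose together: 19 of 20 rose and none fell, with a median of 1.63. Fdps, which makes farnesyl diphosphate, had 81.9, 101, 91.3, 109 and 69.4 FPKM in Combination tumours and 13.1, 9.13, 7.97, 10.5 and 10.2 FPKM in anti-PD-1 tumours (3.03 ± 0.14, adjusted p = 1.22e-11), and Hsd17b7, which acts late in the pathway, rose by 2.29 ± 0.103. For this list anti-PD-1 library 4 did not stand out: the medians of libraries 1 to 5 were 17.8%, 23.7%, 31.8%, 26.3% and 26.2% of the Combination mean. The sterol regulatory element TCACNCCAC was present in 1 of 14 windows of the list (7.14%), against 0.976% of the genes followed.

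Serine and asparagine synthesis and the amino acid stress genes rose too, 14 of 16 with none lower (median 2.49). Atf4, the transcription factor of this response, had 439, 516, 462, 558 and 497 FPKM in Combination tumours and 111, 112, 86.1, 136 and 107 FPKM in anti-PD-1 tumours (2.16 ± 0.14, adjusted p = 1.82e-10). Psat1 and Psph, which catalyse steps of serine synthesis, rose by 4.44 ± 0.32 and 2.81 ± 0.17. Asns, asparagine synthetase, had 111, 134, 113, 157 and 160.1 FPKM in Combination tumours and 2.297, 5.36, 5.19, 14.4 and 4.48 FPKM in anti-PD-1 tumours (4.39 ± 0.32), with no overlap. The letters TGATGNAA, taken here for the amino acid response element to which ATF4 binds, were found on either strand in 5 of 15 windows of the list (33.3%), against 2.23% of the genes followed. The Asns window is shown as that of the list's match with the largest rise; it lies at chr6:7693160-7693459 on the minus strand, and capitals mark the match, at position -23 from the start.
Asns: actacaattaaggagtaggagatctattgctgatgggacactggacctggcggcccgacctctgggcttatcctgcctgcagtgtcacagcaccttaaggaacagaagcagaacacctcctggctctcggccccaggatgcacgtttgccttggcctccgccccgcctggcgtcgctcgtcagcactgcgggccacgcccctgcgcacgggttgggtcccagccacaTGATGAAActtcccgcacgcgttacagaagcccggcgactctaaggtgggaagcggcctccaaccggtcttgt
Here too the match describes letters only.

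Energy genes did not move as a block. Of 17 glycolysis genes 8 rose and 4 fell, beside 43.7% and 30.9% of all genes tested. Pfkp, the platelet form of phosphofructokinase, stood at 37.6 to 52.4 FPKM in Combination tumours and 6.97 to 27.8 FPKM in anti-PD-1 tumours (1.29 ± 0.24), while Slc16a3, a lactate exporter, had 8.75, 8.87, 8.47, 7.28 and 3.52 FPKM in Combination tumours and 71.4, 24.9, 25.04, 42.4 and 43.1 FPKM in anti-PD-1 tumours (-2.28 ± 0.36). Of 16 hypoxia genes 4 rose and 4 fell, with a median of -0.102. For oxidative phosphorylation none of 20 genes rose and 4 fell (median -0.41), but the direction rests on a few libraries. Atp5a1, a subunit of the ATP synthase, had 191, 219.5, 209.9, 212 and 202 FPKM in Combination tumours and 934, 453, 287, 189.8 and 469 FPKM in anti-PD-1 tumours (-0.96 ± 0.27), with the anti-PD-1 libraries in the order of their muscle share. Sdhb, of respiratory complex II, fell, at -0.93 ± 0.28. Without anti-PD-1 libraries 1, 2 and 5, 10 of the 20 oxidative phosphorylation genes rose and none fell, with a median of 0.45. Without anti-PD-1 library 4 alone 13 of them fell, without library 3 alone 9 fell, and without library 1 alone 3 rose and 3 fell.

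Oncofetal and developmental genes had large changes in both directions. Of 20 listed germline and placental genes 18 had values and 10 passed the level filter, and of these 6 rose and 3 fell (median 4.54). A gene high in Combination tumours alone can pass this filter, so the median describes only the genes that passed. Below the filter, Sycp3, Dazl, Ddx4, Mael, Tdrd12, Xlr3a and Rtl1 had lower means in Combination tumours, and Tex101 was 0 in both groups. Dcaf8l had 47.4, 47.7, 50.4, 56.7 and 54.9 FPKM in Combination tumours and 0.289, 0.576, 0.296, 5.04 and 0.626 FPKM in anti-PD-1 tumours (4.77 ± 0.29). Prl2c5, another proliferin with near copies, rose by 4.77 ± 0.36, and Peg3, a paternally expressed imprinted gene, fell, at -1.898 ± 0.19. Of 12 oncofetal and MYC genes 6 passed the level filter, and of these 5 rose and none fell. Among those below the filter, Mycl, Mycn, Igf2bp3 and Lin28a had lower means in Combination tumours, and Igf2bp1 and Lin28b higher ones. Myc, which drives growth and ribosome genes, had 202, 217, 171, 191 and 270.5 FPKM in Combination tumours and 5.08, 12.5, 13.7, 27.3 and 9.801 FPKM in anti-PD-1 tumours (4.01 ± 0.28, adjusted p = 5.46e-10), and Hmga2, an embryonic chromatin protein, rose by 3.46 ± 0.47. Of 9 DNA methylation genes 6 passed the filter, and of these 3 rose and 2 fell, with Uhrf1, which brings the maintenance enzyme to replicated DNA, at 3.93 ± 0.32 and Dnmt1, that enzyme, at 2.92 ± 0.26. Dnmt3b, Dnmt3l and Tet1, below the filter, had lower means in Combination tumours. Of 24 genes of the TGF-beta and BMP pathway 6 rose and 10 fell, with log2 fold changes from -2.18 to 4.51 and a median of -0.45. The list as a whole thus did not rise. The largest of its rises was that of Bmp4, a ligand, which had 100.4, 92.97, 94.5, 89.995 and 154 FPKM in Combination tumours and 3.22, 2.804, 1.93, 9.75 and 3.14 FPKM in anti-PD-1 tumours (4.51 ± 0.27). Id1, a target of BMP signalling, rose by 3.51 ± 0.196.

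The epithelium list had 4 rises and no fall among its 7 genes (median 2.99). Besides Krt8 and Krt18, Perp, a desmosome protein that p53 also induces, stood at 36.9 to 60.4 FPKM in Combination tumours and 1.17 to 3.95 FPKM in anti-PD-1 tumours (3.79 ± 0.496), and Krt14, a basal keratin, at 10.6 to 25.95 FPKM in Combination tumours and 0.105 to 5.72 FPKM in anti-PD-1 tumours (2.99 ± 0.62). Epcam, Cdh1 and Krt19 did not pass, at -0.05 ± 0.66, 0.37 ± 0.43 and 1.09 ± 1.02; without anti-PD-1 library 3 alone Krt19 passed, at 2.17 (adjusted p = 0.0201). Of 20 p53 targets 9 rose and 9 fell, and the share of rises was near the 43.7% of all genes tested. Among them, besides Perp, were Tnfrsf10b, a death receptor, at 3.26 ± 0.25 and Sesn1, a stress sensor, at -1.28 ± 0.15. Of 18 immediate early genes 8 rose and 5 fell, shares near the 43.7% and 30.9% of all genes tested. Their AP-1 subunits were split: Fosl1 had 59.7, 60.8, 48.01, 57.8 and 58.3 FPKM in Combination tumours and 0.319, 2.597, 1.45, 9.08 and 2.25 FPKM in anti-PD-1 tumours (4.14 ± 0.46), whereas Jun had 25.8, 23.7, 24.4, 20.6 and 25.9 FPKM in Combination tumours and 55.8, 58.7, 65.8, 69.1 and 57.03 FPKM in anti-PD-1 tumours (-1.31 ± 0.11). None of the 10 skin keratinocyte markers was high enough to be followed, and of 3 gland secretory genes 1 fell.

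T cell transcripts were lower with the drug. Of 18 genes of the list T cells, 17 fell and none rose, with a median of -1.21; the list made up 0.00223% to 0.0295% of all FPKM in Combination tumours and 0.0173% to 0.0637% in anti-PD-1 tumours, so the groups overlapped. Cd28, the costimulatory receptor, had 2.18, 1.89, 1.76, 0.686 and 0.223 FPKM in Combination tumours and 1.75, 5.34, 6.08, 9.05 and 5.48 FPKM in anti-PD-1 tumours (-1.45 ± 0.34, adjusted p = 0.000799). Cd4, of helper T cells, had 7.496, 5.74, 5.77, 2.904 and 0.677 FPKM in Combination tumours and 6.16, 13.96, 20.2, 13.05 and 12.8 FPKM in anti-PD-1 tumours (-1.49 ± 0.43). Cd8a, of cytotoxic T cells, had 8.48, 7.79, 10.01, 3.51 and 0.734 FPKM in Combination tumours and 4.899, 15.6, 15.6, 17.7 and 15.7 FPKM in anti-PD-1 tumours (-1.23 ± 0.45, adjusted p = 0.0191). In all 3, Combination libraries 4 and 5 were lowest, and anti-PD-1 library 1 lay inside the Combination range. The fall of Cd8a was not called without Combination library 5 (-0.79, adjusted p = 0.0664) or when only these 10 libraries were fitted (adjusted p = 0.0587). Cd247, the signalling zeta chain, fell, at -0.80 ± 0.22. The count of T cell genes called rests on the spread assumed: 8 of 18 fell when only these 10 libraries were fitted, 8 without Combination library 5 and 11 without Combination library 4, anti-PD-1 library 3 or anti-PD-1 library 4, with none higher in any of these fits.

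The subsets and states of T cells gave fewer calls. In the exhaustion list 6 of 15 genes fell and 3 rose (median -0.84); in the cytotoxic list 3 of 16 fell and none rose; in the regulatory T cell list 3 of 6 fell. Entpd1, an ectoenzyme of exhausted and regulatory T cells and of myeloid cells, fell, at -1.598 ± 0.42, Tbx21, a transcription factor of effector cells, at -0.84 ± 0.36, Fasl, a death ligand, at -0.71 ± 0.28, and Foxp3, the regulator of regulatory T cells, at -0.69 ± 0.29, with Il2ra, the interleukin 2 receptor alpha chain, at -0.78 ± 0.33. Those last 4 calls lay near the threshold, with adjusted p-values of 0.0413, 0.03, 0.0397 and 0.0385, and were lost without any 1 of Combination libraries 4 and 5 and anti-PD-1 libraries 3 and 4. Without Combination library 5 the fold changes were -0.61, -0.52, -0.52 and -0.53 (adjusted p = 0.131, 0.101, 0.12 and 0.132). Tbx21 was also lost without anti-PD-1 library 2 or 5, Fasl without anti-PD-1 library 5, and Foxp3 without anti-PD-1 library 2 or Combination library 3. Without anti-PD-1 library 4 Foxp3 was -0.45. Processing choices removed these calls too. Foxp3, Il2ra and Tbx21 were lost with no filter and with replicate numbers as a block. Foxp3, Il2ra and Fasl were lost when only these 10 libraries were fitted, and Tbx21 and Fasl with the muscle level as a covariate. Foxp3 was also lost with quantile normalisation and limma-voom, and Tbx21 with a pseudocount of 0.1. Without anti-PD-1 library 1, 11 genes of the T cell exhaustion list and 9 of the cytotoxic effectors fell; none of the cytotoxic effectors did without any 1 of anti-PD-1 libraries 3, 4 and 5 or Combination libraries 4 and 5, and 6 did without Combination library 1. For the regulatory T cells the count was 5 without anti-PD-1 library 1 or Combination library 2, and 1 without any 1 of anti-PD-1 libraries 3 and 4 or Combination libraries 4 and 5. Of 9 genes of naive and memory T cells 6 fell and 2 rose, with 3 falls without any 1 of anti-PD-1 libraries 2, 3 and 4 or Combination library 5. Tcf7, a factor of memory-like T cells, was 1 of the 2 rises. Its call was lost when libraries were rescaled without muscle genes (0.35, adjusted p = 0.0657). It was also lost when only these 10 libraries were fitted (0.55, adjusted p = 0.0708). With the muscle level as a covariate Tcf7 was 0.11 (adjusted p = 0.668). Without anti-PD-1 libraries 1, 2 and 5 it was 0.0547 (adjusted p = 0.649). Il7r, the interleukin 7 receptor, had 8.31, 5.85, 5.65, 3.25 and 1.22 FPKM in Combination tumours and 3.97, 18.1, 26.9, 62.8 and 38.6 FPKM in anti-PD-1 tumours (-2.14 ± 0.58), while S1pr1, which lets lymphocytes leave tissue and is also made by endothelium, fell, at -1.34 ± 0.17 and Klf2, its activator, at -1.17 ± 0.19, both without overlap.

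Against this fall, 3 genes of the exhaustion list rose. Eomes, a T-box factor of exhausted and memory T cells, had 34.2, 37.5, 30.4, 42.5 and 36.99 FPKM in Combination tumours and 0.747, 1.402, 2.79, 4.85 and 1.12 FPKM in anti-PD-1 tumours (3.69 ± 0.29, adjusted p = 2.99e-09). Tigit, an inhibitory receptor, had 19.5, 17.9, 14.1, 20.7 and 18.5 FPKM in Combination tumours and 1.13, 3.91, 5.402, 8.54 and 5.06 FPKM in anti-PD-1 tumours (1.86 ± 0.28, adjusted p = 7.88e-06). Nr4a2, a nuclear receptor induced by T cell receptor signals, stood at 3.33 to 5.55 FPKM in Combination tumours and 1.73 to 3.12 FPKM in anti-PD-1 tumours (0.57 ± 0.15). Pvr, which encodes the main ligand of TIGIT, rose with its receptor, at 57.7, 55.7, 52.1, 56.6 and 75.7 FPKM in Combination tumours and 6.44, 11.7, 7.99, 17.1 and 11.2 FPKM in anti-PD-1 tumours (2.41 ± 0.22). Unlike the T cell genes, Eomes, Tigit and Pvr were as high in Combination library 5 as in the others: that library had a mean of 0.654 FPKM over Cd3d, Cd3e, Cd3g, Cd2 and Cd6, the lowest of all, against 9.43 to 11.5 FPKM in Combination libraries 1 to 3. Which cells carried Eomes and Tigit was not tested.

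In a further comparison 0.1 was added to the FPKM of each of 14 genes, and the result was divided by that mean of 5 T cell genes in each library. The ratios were compared by an exact two-sided permutation test of 5 against 5 libraries, for which the smallest p is 0.00794. Of the 14 ratios 5 passed after adjustment over the 14. The ratio of Eomes was 2.99, 3.87, 3.24, 11.2 and 56.7 in Combination tumours and 0.145, 0.0873, 0.129, 0.218 and 0.0621 in anti-PD-1 tumours, a log2 difference of 6.003 (exact adjusted p = 0.037). The ratio of Tigit was 1.71, 1.84, 1.51, 5.48 and 28.5 in Combination tumours and 0.211, 0.233, 0.245, 0.3799 and 0.262 in anti-PD-1 tumours, a difference of 3.85, and that of Tcf7, a factor of memory-like T cells, differed by 2.46, both with the same exact adjusted p of 0.037. These 3 genes did not follow the divisor: Tcf7 had 4.495, 4.66, 4.18, 5.09 and 4.93 FPKM in Combination tumours and 1.01, 3.102, 4.54, 4.37 and 2.49 FPKM in anti-PD-1 tumours, and Eomes and Tigit were also level among the Combination libraries, while the divisor ran down to 0.654 FPKM. Their ratios, highest in Combination libraries 4 and 5, therefore restate the level of each gene and the fall of the T cell genes, and are not levels per T cell. Lag3 and Gzmb, an inhibitory receptor and a granule protease, had higher ratios, by 0.88 and 1.27 (exact adjusted p = 0.0444 each), with overlapping groups. For Lag3, Combination library 3 had 0.576 and anti-PD-1 library 4 had 0.681. For Gzmb, Combination library 2 had 0.753 and anti-PD-1 library 4 had 0.774. Which cells carried these 2 genes was not tested, so their ratios are not levels per T cell either.

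The ratios of the study's own genes did not pass with all 10 libraries. Pdcd1 had ratios of 0.467, 0.577, 0.496, 0.482 and 1.08 in Combination tumours and 0.258, 0.308, 0.387, 0.621 and 0.385 in anti-PD-1 tumours, a log2 difference of 0.65 (exact adjusted p = 0.148). Tox had ratios of 0.0589, 0.0554, 0.0460, 0.105 and 0.305 in Combination tumours and 0.0915, 0.0740, 0.0818, 0.0569 and 0.0543 in anti-PD-1 tumours, a difference of 0.30 (exact adjusted p = 0.778). The size of the Tox difference depends on the added 0.1, which exceeds the 0.0992 FPKM of Tox in Combination library 5. With 0.5 added instead, the Tox difference was 0.83 (exact adjusted p = 0.313). Cxcr4 differed by -0.24 (exact adjusted p = 0.778). CXCR4 is not made by T cells alone. Of the other ratios, Tox2, Havcr2, Ctla4, Entpd1, Prf1 and Ifng differed by 0.61, 0.86, 0.61, 0.03, 0.43 and 1.14, with exact adjusted p-values of 0.515, 0.467, 0.111, 0.976, 0.148 and 0.0926. With 1 library fewer the design has little room: the 5 calls passed only when anti-PD-1 library 4 was left out, and otherwise had exact adjusted p-values of 0.0556 to 0.0889. Without anti-PD-1 library 4 the ratios of Pdcd1, Ctla4, Prf1 and Ifng passed as well, with differences of 0.83, 0.76, 0.58 and 1.47 (exact adjusted p = 0.0247 each).

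**Figure D3:**
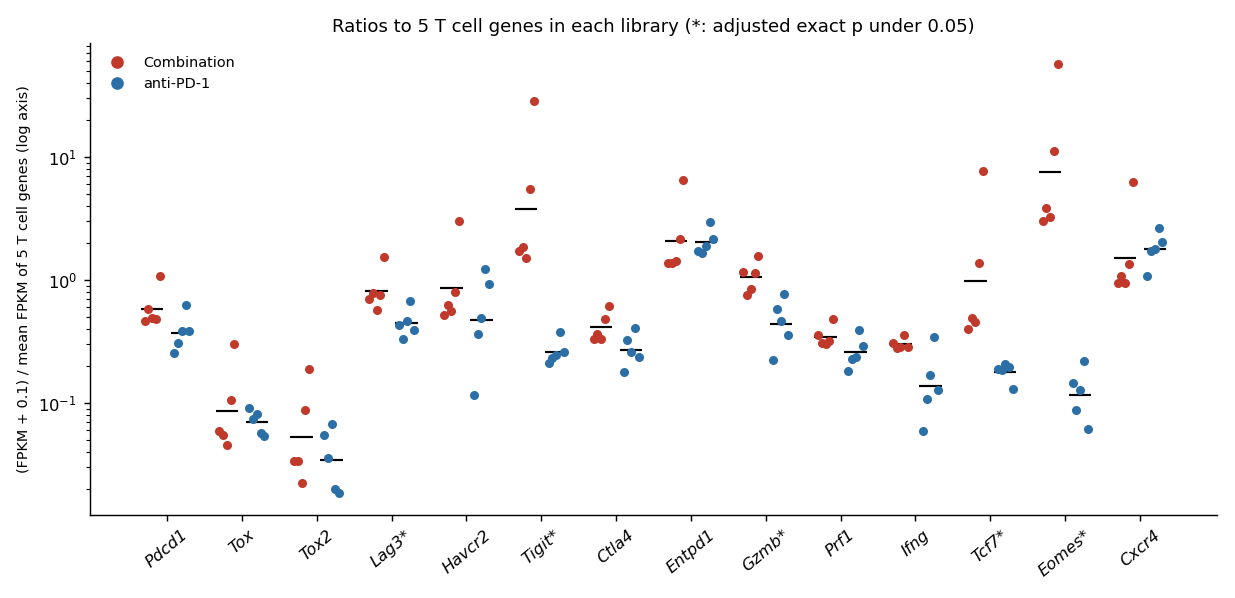
(FPKM + 0.1) of 14 genes divided by the mean FPKM of 5 T cell genes, on a log axis, in 5 Combination (red, left) and 5 anti-PD-1 (blue, right) libraries, with the geometric mean as a line and an asterisk for an exact adjusted p under 0.05. For Eomes, Tigit and Tcf7 every Combination point lies above every anti-PD-1 point, while Tox and Cxcr4 overlap.

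Other lymphocytes followed the T cells in part. Of 9 genes of NK cells 2 rose and 3 fell, with log2 fold changes from -1.27 to 3.69 and a median of -0.18. Under the alternatives that median lay between -0.98 and 0.56, so its sign is not settled. No fall was called without anti-PD-1 library 3 or Combination library 5 or when only these 10 libraries were fitted. There was 1 without anti-PD-1 library 4 or 5 or Combination library 4. Eomes is on this list too, and Klra4, a receptor of the Ly49 family, had 11.3, 13.3, 8.68, 12.1 and 16.6 FPKM in Combination tumours and 0.145, 0.404, 0.825, 1.09 and 0.446 FPKM in anti-PD-1 tumours (3.09 ± 0.25). Ly49 genes are near copies of each other, so the member read is uncertain. Of 7 B and plasma cell genes 6 fell and none rose (median -1.497), among them Cd79b, a chain of the B cell receptor complex, at -1.62 ± 0.398, and Xbp1, a factor of secretory cells, at 34.6 to 50.9 FPKM in Combination tumours and 55.1 to 102 FPKM in anti-PD-1 tumours (-0.91 ± 0.16).

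Macrophage genes were lower with the drug as well. Of 18 genes of the list macrophages and monocytes 13 fell and none rose (median -1.396), and of 17 lipid-handling genes 13 fell and 2 rose (median -2.402). Adgre1, a surface receptor of macrophages, had 46.5, 37.8, 48.4, 22.1 and 12.7 FPKM in Combination tumours and 31.8, 94.4, 134, 132 and 85.2 FPKM in anti-PD-1 tumours (-1.48 ± 0.404). Trem2, a lipid-sensing receptor, had 22.6, 18.7, 21.8, 12.9 and 10.5 FPKM in Combination tumours and 9.48, 117, 159, 266 and 132 FPKM in anti-PD-1 tumours (-2.402 ± 0.605), with anti-PD-1 library 1 below all the Combination libraries. Apoe, the lipid carrier, also had its low anti-PD-1 value in library 1, at 619, 596, 546, 331 and 239.8 FPKM in Combination tumours and 501, 5006, 6315, 7946 and 3421 FPKM in anti-PD-1 tumours (-2.94 ± 0.597). Mertk, a receptor for dying cells, fell, at -2.11 ± 0.45 and Mrc1, the mannose receptor, at -1.65 ± 0.38. Abca1, a cholesterol exporter, fell, at -3.27 ± 0.501, without overlap. Without anti-PD-1 library 1, 16 of the macrophages and monocytes genes fell, with a median of -1.82, and 9 did without Combination library 5.

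Genes of alternatively activated macrophages and eosinophils fell in 8 of 13, with Ear2, an eosinophil ribonuclease whose gene has near copies, at -2.78 ± 0.71 and Siglecf, an eosinophil receptor, at -1.25 ± 0.32. Of 14 genes of neutrophils 4 fell, with 7 falls without anti-PD-1 library 1 and 2 without library 4. Of 8 genes of mast cells 5 fell and 1 rose, with 2 falls without anti-PD-1 library 3 and 3 without Combination library 5. Of 11 genes of dendritic cells 2 fell and 2 rose, and 5 fell without anti-PD-1 library 1. Of 12 MHC class II genes 7 fell and none rose, and of 18 genes of MHC class I presentation 8 fell and 1 rose, beside 30.9% of all genes tested that fell. The MHC class I count was 5 without Combination library 5, a share below that of all genes. H2-D1, a classical class I heavy chain, had 743, 589.6, 578, 348 and 165 FPKM in Combination tumours and 428, 1457, 2037, 1959 and 1599 FPKM in anti-PD-1 tumours (-1.62 ± 0.46). H2-Aa, a class II chain, had 877, 787, 782, 385 and 111 FPKM in Combination tumours and 466, 1398, 2359, 1668 and 1313 FPKM in anti-PD-1 tumours (-1.44 ± 0.55), while Ciita, the class II transactivator, fell, at -1.29 ± 0.43 and Cd74, the invariant chain, at -1.32 ± 0.55. Without Combination library 5, H2-Aa was -0.92 (adjusted p = 0.0928) and Cd74 -0.83 (adjusted p = 0.134); both were also lost without any 1 of Combination library 4 and anti-PD-1 libraries 3 and 4, and Cd74 without anti-PD-1 library 2 or 5 and with no filter. The MHC class II presentation count was 2 without any 1 of Combination libraries 4 and 5 or anti-PD-1 libraries 3 and 4, 3 without anti-PD-1 library 2 or 5, and 11 without anti-PD-1 library 1. MHC class I genes have near-identical relatives whose reads can be shared.

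Soluble immune genes and the interferon response were less uniform. Of 24 interferon response genes 2 rose and 1 fell, with a median of 0.11 that was -0.18 without anti-PD-1 library 1 and -0.12 when libraries were rescaled without muscle genes. Oasl1, an antiviral protein, rose by 1.05 ± 0.298, Rsad2, viperin, fell to 1.72 to 3.64 FPKM in Combination tumours, against 4.75 to 15.5 FPKM in anti-PD-1 tumours (-1.302 ± 0.28), and Isg15, a ubiquitin-like modifier, did not pass (0.65 ± 0.43). Isg15 did pass in the fit without library 4 of the anti-PD-1 group, at 1.0045 (adjusted p = 0.0282). With the muscle level as a covariate the rise of Oasl1 was not called (0.52, adjusted p = 0.224). Of 28 chemokine ligands 7 fell and 2 rose, a share of falls below the 30.9% of all genes tested. Among these chemokine ligands 13 fell without anti-PD-1 library 1. Of 11 chemokine receptors 5 fell, and 3 did without any 1 of anti-PD-1 libraries 2 to 5 or Combination libraries 4 and 5. Cx3cl1, fractalkine, rose among the ligands, at 74.3, 69.5, 67.5, 85.7 and 62.6 FPKM in Combination tumours and 3.61, 7.76, 7.44, 8.68 and 8.77 FPKM in anti-PD-1 tumours (3.18 ± 0.28, adjusted p = 1.27e-08). Of 20 complement genes 14 fell and none rose (median -1.37), including C1s1, a protease of the classical pathway, at -2.28 ± 0.57. Of 19 checkpoint ligands and receptors 6 fell and 3 rose, a share of falls near the 30.9% of all genes tested. Vsir, which encodes VISTA, fell, at -1.798 ± 0.39. Without anti-PD-1 library 1, 14 of the checkpoint ligands and receptors fell, and 3 did without Combination library 5. Of 22 genes of lysosome and cathepsins 11 fell and 1 rose, and 18 fell without anti-PD-1 library 1.

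Stromal genes fell with few exceptions. Of 20 genes of fibroblasts and matrix 18 fell and none rose, with a median of -2.25, and 18 or 19 fell under every alternative tried. Pdgfra, the receptor for platelet-derived growth factor on fibroblasts, had 6.02, 5.22, 3.47, 2.79 and 1.599 FPKM in Combination tumours and 15.5, 28.7, 29.6, 23.2 and 20.6 FPKM in anti-PD-1 tumours (-2.399 ± 0.27, adjusted p = 2.68e-07). Pdgfrb, of fibroblasts and pericytes, stood at 2.89 to 9.15 FPKM in Combination tumours and 16.1 to 46.1 FPKM in anti-PD-1 tumours (-2.24 ± 0.304), and Col6a3, a microfibril collagen, at 9.96 to 21.3 FPKM in Combination tumours and 32.8 to 166 FPKM in anti-PD-1 tumours (-2.66 ± 0.37). None of these 3 overlapped. Of 12 pericyte and smooth muscle genes 10 fell, with Rgs5, a pericyte signalling regulator, at -2.27 ± 0.296 and Kcnj8, a potassium channel, at -1.53 ± 0.16. Of 14 endothelial genes 12 fell and 1 rose (median -1.28). Cdh5, the cadherin of endothelial junctions, had 16.5, 12.96, 15.4, 10.5 and 9.76 FPKM in Combination tumours and 39.9, 48.7, 34.6, 35.3 and 48.8 FPKM in anti-PD-1 tumours (-1.61 ± 0.18, adjusted p = 1.67e-07), Tek, the angiopoietin receptor, fell, at -2.11 ± 0.29 and Kdr, a VEGF receptor, at -1.12 ± 0.16.

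The 12 largest falls without overlap between the groups were of mixed kinds. Myoc, a secreted protein of muscle and connective tissue, had 0.416, 0.177, 2.04, 0.0259 and 0.385 FPKM in Combination tumours and 50.9, 70.8, 24.95, 3.83 and 44.04 FPKM in anti-PD-1 tumours (-4.295 ± 0.59). Lpl, lipoprotein lipase, had 26.1, 13.7, 14.4, 8.92 and 5.83 FPKM in Combination tumours and 301, 261, 269, 165 and 187 FPKM in anti-PD-1 tumours (-4.12 ± 0.39, adjusted p = 2.69e-08), and Cd36, a fatty acid and lipoprotein receptor, had 17.6, 10.9, 9.92, 6.36 and 5.27 FPKM in Combination tumours and 158, 107, 111, 132 and 156 FPKM in anti-PD-1 tumours (-3.695 ± 0.34). For Lpl and Cd36 the muscle-poor anti-PD-1 library 4 was well above every Combination library. Angptl1, an angiopoietin-like protein, fell, at -4.05 ± 0.598, Clec3b, tetranectin, at -3.99 ± 0.79 and Itm2a, a membrane protein of early muscle and cartilage, at -3.83 ± 0.49. The others were Ak1, an adenylate kinase, Ddit4l, an inhibitor of mTOR signalling, Jph2, a junctophilin of muscle, Nrep, Ldhb, a lactate dehydrogenase subunit, and Fxyd1, phospholemman, with log2 fold changes of -4.16, -4.15, -3.99, -3.97, -3.75 and -3.74. Of 9 adipocyte genes 6 fell, among them Fabp4, a fatty acid binding protein of fat, vessels and macrophages, at -3.07 ± 0.395; of 8 peripheral nerve genes 4 fell and 1 rose, and of 6 erythroid genes all 6 fell. With the muscle level as a covariate 2 genes of adipocytes and 0 of erythroid cells fell. Hba-a1, alpha globin, had 32.8, 8.18, 6.47, 9.16 and 56.4 FPKM in Combination tumours and 698, 50.5, 95.4, 158 and 41.2 FPKM in anti-PD-1 tumours (-2.81 ± 0.77); it has a near-identical copy, and the groups overlapped.

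**Figure D4:**
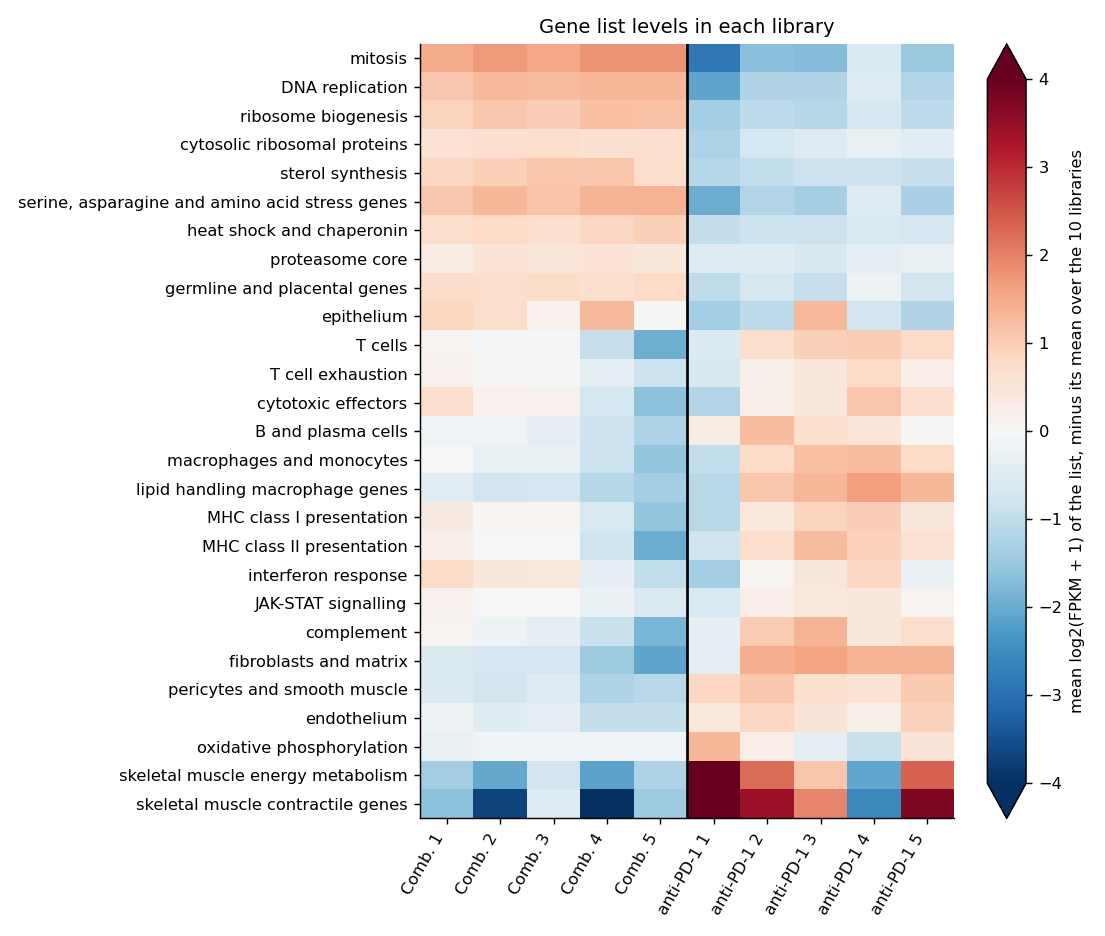
Mean log2(FPKM + 1) of 27 gene lists in each Combination (left) and anti-PD-1 (right) library, minus the list's mean over the 10 libraries; red is above and blue below that mean. Lists of cell division are level across Combination libraries, T cell, macrophage and fibroblast lists are lowest in Combination library 5 and, within the anti-PD-1 group, in library 1, and contractile genes are high in anti-PD-1 libraries 1, 2, 3 and 5.

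The largest falls of all were muscle genes, and their level varied widely among the anti-PD-1 libraries. All 27 contractile genes followed fell (median -4.997), as did 14 of 15 genes of muscle energy metabolism. So did all 7 genes followed from the list of myogenic factors and satellite cells. Pvalb, the calcium buffer of fast fibres, had 33.2, 3.23, 40.7, 0.30996 and 13.8 FPKM in Combination tumours and 5587, 1611, 592, 8.51 and 2273 FPKM in anti-PD-1 tumours (-5.98 ± 1.56, adjusted p = 0.00214). Acta1, skeletal actin, had 146, 10.04, 381, 3.601 and 290.2 FPKM in Combination tumours and 20552, 6065, 2567, 41.05 and 7362 FPKM in anti-PD-1 tumours (-5.37 ± 1.69). In both genes anti-PD-1 library 4 lay inside the Combination range, and none of the 27 genes kept the groups apart. Atp2a1, the calcium pump of fast fibres, fell, at -5.94 ± 1.59, Myh4, a fast myosin, at -5.71 ± 1.45, Ckm, muscle creatine kinase, at -5.695 ± 1.68, Neb, nebulin, at -4.29 ± 0.91 and Cacna1s, a calcium channel of the T tubule, at -3.95 ± 0.798. Of genes of muscle formation, Myog, myogenin, had 0.818, 0.0355, 3.33, 0 and 1.37 FPKM in Combination tumours and 12.5, 26.4, 4.42, 1.29 and 24.3 FPKM in anti-PD-1 tumours (-2.51 ± 0.64), and Mymk, needed for myoblast fusion, fell, at -1.92 ± 0.44. Without anti-PD-1 libraries 1, 2 and 5 only 1 of the 27 skeletal muscle contractile genes was still called, with a median of -2.21. The CArG box, a muscle promoter element, was in 2 of 23 windows of the list (8.7%) and in 1.33% of those of the genes followed.

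The same drug without the antibody gave a second contrast, whose fold changes come from other libraries, those of Plerixafor and Solution. All 20 libraries shared 1 estimate of the spread, so the calls of the 2 contrasts are not separate tests. There 5370 of the genes tested (42.3%) were higher and 4207 (33.2%) lower in Plerixafor tumours. Of the 5454 rises with the antibody, 4764 (87.3%) were also rises without it, which is 90.1% of the 5285 rises there among the genes followed. Of the 3403 falls, 2782 (81.8%) were also falls, or 76.9% of the 3620 there. Only 8 genes were called in opposite directions, all lower in Combination and higher in Plerixafor tumours; they include Pfkm, muscle phosphofructokinase, at -2.15 and 1.85, and Ank1, an ankyrin, at -1.42 and 1.61, both picked after their values were seen. Across the 11885 genes, which are not independent replicates, the 2 sets of fold changes had a Pearson r of 0.85 and a Spearman rho of 0.897. The medians of lists are given side by side, with no test of their difference: T cells had -1.21 with and -2.07 without the antibody, MHC class II -1.19 and -1.94, endothelium -1.28 and -0.82, and contractile genes -5.00 and 1.13.

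**Figure D5:**
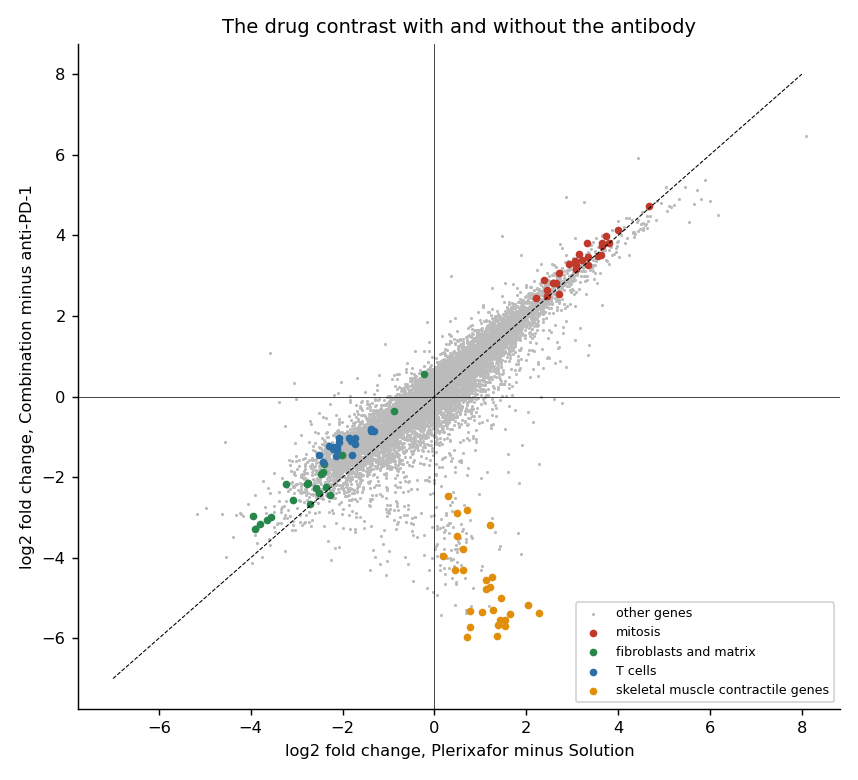
Log2 fold change of FPKM + 1 for each gene, Combination minus anti-PD-1 on the vertical and Plerixafor minus Solution on the horizontal axis, with equal values on the dashed line. Mitosis genes (red) are high in both contrasts, T cell (blue) and fibroblast genes (green) are low in both contrasts, and contractile genes (orange) are low only on the vertical axis.

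Whether the drug's contrast differed with and without the antibody was tested directly as an interaction. By limma no gene passed (0%), with a smallest adjusted p of 0.199, while 1957 of the genes tested had an unadjusted p under 0.05. limma-voom on recovered reads also gave 0, limma with libraries weighted by their spread gave 3805 of the genes followed, and leaving out anti-PD-1 library 4 gave 928. The genes with the smallest p are therefore values without a call. Igf2, an imprinted growth factor, had 15.1, 13.5, 17.9, 16.5 and 24.5 FPKM in Combination tumours and 23.5, 42.1, 8.79, 7.99 and 25.3 FPKM in anti-PD-1 tumours, a log2 fold change of -0.06 with and 2.602 without the antibody (interaction -2.66 ± 0.56, unadjusted p = 0.000137, adjusted p = 0.199). Itga7, the laminin receptor of muscle, had 0.96 with and 2.44 without it (unadjusted p = 8.57e-05). Npnt, Ank2 and Tmem204 also had lower fold changes with the antibody than without, at 2.28 and 3.64, 0.26 and 0.96, and -1.25 and -0.22. On the other side, Cdh1 had 0.37 with and -2.03 without the antibody (unadjusted p = 0.000831), and Dhcr7, the last enzyme of cholesterol synthesis, 1.64 and 0.92. Egr2, Prrg2, Sh2d1b1 and 9430038I01Rik completed the 6 smallest on that side, at 0.12 and -1.51, 0.11 and -0.39, -0.08 and -0.82, and 0.51 and 0.02. For the study's own genes the pairs of fold changes, with and without the antibody, were -1.84 and -2.47 for Cxcr4, -0.84 and -2.11 for Pdcd1, -0.04 and -0.51 for Jak2 and 0.06 and -0.26 for Stat3, with unadjusted interaction p-values of 0.341, 0.0526, 0.0758 and 0.251.

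A p that misses the threshold does not show that a gene kept its level, so intervals were read as well. For 1730 of the 11885 genes the 95% interval of the log2 fold change lay within 0.5 of 0 in both directions, and 1400 of these, Jak2 and Stat3 among them, had not passed the test. The other genes without a call had intervals that reached past 0.5 on at least 1 side.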

How the data were processed

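RNA from U14 tumours was sequenced in 20 libraries, 5 each of Combination, anti-PD-1, Plerixafor and Solution, from a stranded mRNA kit per the labels' protocols. The authors deposited 1 table of FPKM values for 18722 genes; no source used here gives the order of the steps that made it. HISAT2 2.1.0, HTSeq 0.11.2, StringTie 2.1.4, DESeq2 1.28.1 and the build GRCm39 are named, without roles, per the submitters' processing notes. Whether reads were counted by strand is not given either, so overlapping and antisense genes are uncertain. All 18722 of 18722 genes gave whole reads to within 0.02 when FPKM steps were converted, which supplied the depths and a limma-voom alternative.

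From the deposited FPKM values, log2(FPKM + 1) was fitted by group over all 20 libraries in R 4.3.3, using the limma package (3.58.1) with a trended prior and 16 residual degrees of freedom. The test covered the 12687 genes that reached 1 FPKM in 5 or more of the 20 libraries, with Benjamini-Hochberg adjustment over all of them. Ratios to T cell genes used (FPKM + 0.1) and an exact permutation test over 252 assignments, adjusted over 14; Cd6 took the place of Trac, which was not used here. The fit was tested on simulated data.

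Genes named are Cxcr4, Cxcl12, Pdcd1, Cd274, Tox, Jak2 and Stat3; genes from the 12 largest rises, the 12 largest falls and the 12 largest falls without overlap (mean of at least 2 FPKM in the higher group); the 6 smallest interaction p-values in each direction; and leading genes of 53 lists. Ube2c, Cd8a, Apoe and Epcam lie outside this rule, and a few genes that meet it are not reported here. The comparison, the genes followed and the lists were chosen with earlier results of these data known. Alternatives covered the pseudocount, the filter, scaling, muscle level, library weights, the libraries fitted and leaving out each library. Replicate numbers did not pair the libraries.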

Additional observations from a re-analysis of the deposited data

Results flagged for a closer look

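A value was singled out when 1 library's gap to the nearest of its group of 5 exceeded 0.71 of the group's range; 44 of 436 groups met this, where chance gives about 1 in 20. The values fall mostly on a few libraries, and no cause was tested.

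Anti-PD-1 library 1 was low for leukocyte and stromal genes. It had 4.90 FPKM of Cd8a, 9.48 of Trem2, 16.5 of Abca1, 428 of H2-D1, 3.61 of Cx3cl1 and 32.8 of Col6a3. Its mean log2(FPKM + 1) was 1.94 for T cells, 4.32 for macrophages and monocytes, 6.04 for lipid handling macrophage genes, 4.99 for MHC class I presentation, 2.26 for chemokine ligands and 6.04 for fibroblasts and matrix. It was 2.49 for cyclins and CDK inhibitors, 5.79 for lysosome and cathepsins, 3.34 for p53 targets and 2.91 for the TGF-beta and BMP pathway. This library also had the highest muscle share, and the part of that share in these values was not tested.

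Anti-PD-1 library 4 was high for genes that rose with the drug: 9.06 FPKM of Gchfr, 3.06 of Tex11, 3.21 of Cldn6, 7.06 of Aurka, 2.14 of Pole, 5.02 of Psph, 5.04 of Dcaf8l, 3.89 of Prl2c5 and 9.75 of Bmp4. The same library was low for Tek, at 5.15 FPKM. Anti-PD-1 library 3 was high for epithelial genes, with 92.1 FPKM of Krt19 and 15.4 of Epcam, and with mean log2(FPKM + 1) of 3.31 for epithelium and 2.97 for gland secretory genes. In anti-PD-1 library 5 the T cell ratio of Tcf7 was low, at 0.131.

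Among Combination tumours, library 5 had 3.52 FPKM of Slc16a3, 0.373 of Ear2 and 0.446 of Cdh1, all low, and 154 FPKM of Bmp4, 5.55 of Nr4a2 and 75.7 of Pvr, all high. Its T cell ratios of Pdcd1, Havcr2 and Cxcr4 were high, at 1.08, 3.03 and 6.23, over the lowest divisor of any library. Combination library 4 had 30.2 FPKM of Hmga2, and Combination library 3 had 48.0 of Fosl1 and 3.88 of 9430038I01Rik. Combination library 1 had a mean log2(FPKM + 1) of 6.82 for oxidative phosphorylation.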

How the results depend on the processing

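The count of genes past the threshold, 8857, stayed within 1.5 times under every alternative tried, between 8406 and 9565 when 1 library was left out; 7549 with the muscle level as a covariate and 7085 with a minimum of 5 FPKM were the lowest of all. Rises made up 49.8% of calls when libraries were rescaled without muscle genes. The replicate numbers did not pair the libraries, with correlations of -0.255, -0.11, -0.0407, 0.329 and -0.0138 for numbers 1 to 5; with the replicate block 8741 genes were called, and the paired exact test, whose smallest unadjusted p is 0.0625, gave the 5 T cell ratios called an exact adjusted p of 0.125 each. The interaction, with 0 calls, gave 3805 with library weights and 0 to 928 with 1 library left out. Of the 151 genes named, 34 changed sign or side of the threshold under at least 1 alternative; the cause was not tested.

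Most reversals were in genes that had not passed. With 1 library left out, log2 fold changes ranged from -0.19 to 0.0701 for Jak2, -0.17 to 0.17 for Stat3, -0.34 to 0.58 for Epcam, -0.33 to 0.23 for Igf2, -0.20 to 0.30 for Egr2 and -0.19 to 0.0251 for Sh2d1b1, and log2 ratio differences from -0.16 to 0.53 for Tox and -0.38 to 0.18 for Entpd1, which was -0.16 with the other T cell divisor. Stat3 was -0.0576 with TPM, -0.13 with median-of-ratios scaling, -0.21 with quantile normalisation, -0.23 rescaled without muscle genes, -0.29 with the muscle covariate, -0.00052 with library weights and -0.33 without anti-PD-1 libraries 1, 2 and 5. With library weights Jak2 was 0.0174, Epcam 0.0288 and Sh2d1b1 0.00916, and with quantile normalisation Sh2d1b1 was 0.16. With the muscle covariate Isg15 was -0.15, Krt19 -0.29, Cdh1 -0.18, Egr2 -0.27 and Igf2 0.90, and of called genes Pvalb was 0.0101, Atp2a1 0.18, Ckm 0.75 and Acta1 1.15. Without anti-PD-1 libraries 1, 2 and 5 Isg15 was -0.10, Krt19 -0.82, Cdh1 -0.42, Egr2 -0.37 and Igf2 0.95. Prrg2 was -0.0634 with median-of-ratios scaling, -0.0639 with quantile normalisation and -0.15 rescaled without muscle genes, and Egr2 was -0.00018 and -0.0802 with the first and last of these. Genes near 1 FPKM have the least precise values at this depth.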
